A study of Mus musculus with 2 samples.

Results

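The most abundant single small RNA sequences of piRNA length were described in fetal testes of mice with and without the heat shock protein HSP90α, a chaperone that helps client proteins to fold and mature. The sequences were chosen by their read count alone: a sequence of 24 to 33 nt was taken when it was read at least 100 times in both libraries together and matched, on the sense strand and without mismatch, neither an annotated miRNA hairpin nor an annotated rRNA, snRNA, snoRNA, scaRNA, misc_RNA or mitochondrial gene. Of 1132769 distinct sequences, 685333 had 24 to 33 nt, 2699 of these had at least 100 reads, and 2570 remained after the match filters. They held 857926 reads in the wild-type (WT) library and 618584 in the knockout library, and every one of the 2570 was read in both. One library came from WT and the other from Hsp90α KO mice of the C57BL/6 background. Each was made from 20 whole testes pooled at embryonic day 16.5 (E16.5) after natural mating, so that there was 1 library per genotype and no replicate. The libraries held 6409305 (WT) and 5589326 (KO) reads. Because whole testes were used, fewer germ cells and less RNA per germ cell cannot be told apart.

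At this age the male germ cells, the prospermatogonia, make piRNAs, small RNAs that guide PIWI proteins to retrotransposon transcripts and, through the nuclear PIWI protein MIWI2, to retrotransposon DNA. Primary piRNAs bound by MILI mostly begin with uracil (U1). In the ping-pong cycle a PIWI protein cuts a complementary transcript at a fixed distance from the 5′ end of its guide, so that the new (secondary) piRNA overlaps its guide by 10 bases at the 5′ ends and often carries adenine at position 10 (A10). Fragments of tRNA and rRNA and miRNAs with added bases can have the same length as piRNAs and are not made by this pathway.

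Sequences that share their first 20 bases were put into 1 group, because such sequences have a common 5′ end and differ mainly in where they stop. The 2570 sequences fell into 1175 groups. The 10 groups with the most reads are shown first, each by its most frequent sequence, since they weigh most in any sum of reads. The files give sequences as DNA (T for U), and capitals mark positions 1 and 10. The tRNA and rRNA names are from general knowledge, because sequences of nuclear tRNA genes and of the rRNA precursor were not used here.
tRNA-Val 5′ fragment: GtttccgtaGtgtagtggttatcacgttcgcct
tRNA-Gly 5′ fragment: GcattggtgGttcagtggtagaattctcgc
tRNA-Gly 5′ fragment, other form: GcattgtggTtcagtggtagaattctcgcc
miR-92a-3p with tail: TattgcactTgtcccggcctgtaa
miR-127-3p with tail: TcggatccgTctgagcttggctat
miR-10b-5p with tail: TaccctgtaGaaccgaatttgtga
miR-199a-5p with tail: CccagtgttCagactacctgttct
28S rRNA 5′ end: CgcgacctcAgatcagacgtggcgacccg
5.8S rRNA 3′ end: CccggggctAcgcctgtctgagcgtcgct
unassigned, ending in CCA: TacctggttGatcctgccgactacgcca
None of these 10 leading groups had both U1 and A10. The sequences below stand for the groups with most reads among those that matched transcripts of many genes, the L1 retrotransposon or a few genes, and for the 3 groups with the lowest KO/WT ratio among groups of at least 500 reads. They are shown because the pathway above concerns sequences of this kind.
multi-gene a, L1 antisense: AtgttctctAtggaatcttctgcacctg
multi-gene b, L1 antisense: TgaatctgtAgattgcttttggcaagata
L1-matching a, L1 sense: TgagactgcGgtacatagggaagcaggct
L1-matching b, L1 sense: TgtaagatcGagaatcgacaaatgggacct
few genes a: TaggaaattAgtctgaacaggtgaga
few genes b: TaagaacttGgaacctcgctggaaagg
lowest ratio a, L1 antisense: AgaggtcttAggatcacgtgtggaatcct
lowest ratio b, few genes: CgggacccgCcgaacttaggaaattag
lowest ratio c, few genes: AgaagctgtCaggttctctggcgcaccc
The RefSeq mature miRNAs follow, with the seed (bases 2 to 8) in capitals, for comparison with the 4 tailed sequences above.
mmu-miR-92a-3p: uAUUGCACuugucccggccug
mmu-miR-127-3p: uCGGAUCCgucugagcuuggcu
mmu-miR-10b-5p: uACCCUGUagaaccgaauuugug
mmu-miR-199a-5p: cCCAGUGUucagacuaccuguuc

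Each sequence was compared between the libraries by the KO/WT ratio, in which its reads were divided by the reads of the library that matched miRNA hairpins (2523084 in WT and 2561491 in KO). The intervals are 95% exact (Clopper-Pearson) intervals and cover counting error only. The reads of all 2570 sequences together had a ratio of 0.710 (0.708 to 0.713). The ratio of single sequences ran from 0.0404 to 19.2, with a median of 0.779 and quartiles of 0.600 and 0.934, and the 5th and 95th percentiles were 0.356 and 1.18. The median over the 1175 groups was 0.773. At or below a ratio of 0.5 were 393 sequences (15.3%). Among the 9430 sequences of 20 to 99 reads that passed the same match filters, 26.6% were at or below 0.5, and among 706 exact miRNA sequences of at least 100 reads 2.83% were. The share of low ratios among the abundant sequences was thus smaller than among the rarer ones, whose ratios carry the larger counting error. At or above 2 were 7 abundant sequences, against 1.56% of the rarer sequences and 0.0% of the miRNA sequences. With all reads as the normalizing total in place of miRNA reads, 236 sequences were at or below 0.5, and with structural RNA reads 207 were. Around the read limit, the 83 sequences with 100 to 102 reads had a median ratio of 0.713, and the 93 sequences with 97 to 99 reads a median of 0.784.

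Each base typical of piRNAs, U1 or A10, was found in a minority of the groups of abundant sequences. U1 was found in 376 of the 1175 groups (32.0%) and A10 in 300 (25.5%). The sequences were sorted by what they matched, in a fixed order. A sequence was called a tailed miRNA when it matched a hairpin after removal of up to 5 bases at its 3′ end with at least 18 bases left, and a miRNA or structural variant when it matched with up to 2 mismatches. It was called tRNA-like when it held a tRNA promoter element (A box near the 5′ end, or B box) or ended in CCA. Of the rest, a sequence was called multi-gene when transcripts of 10 or more genes held it, in sense or antisense, L1-matching when it lay within 2 mismatches of L1 copies in the transcripts, few-gene when it matched 1 to 9 genes, and otherwise unmatched. The 177 tRNA-like sequences held 36.4% of the WT reads and 25.7% of the KO reads, and the 226 tailed miRNAs held 16.1% and 22.96%. The 1552 unmatched sequences held 36.7% and 42.1%. The multi-gene, L1-matching and few-gene sequences, 139, 54 and 178 in number, held 2.85%, 1.21% and 3.14% of the WT reads and 1.57%, 0.741% and 2.59% of the KO reads. The 69 miRNA variants, 12 structural variants and 163 antisense matches to structural RNA or miRNA held 1.02%, 0.258% and 2.32% of the WT reads. These names state a match and not an origin. Of the miRNA variants 61, and of the antisense matches 122, belonged to ladders, sets of overlapping sequences described below. The most frequent antisense match also matched a transcript of the gene Gm42418 in sense.

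The classes differed in base use and in ratio. U1 was present in 80.4% of the 92 multi-gene groups and in 85.3% of the 34 L1-matching groups, and A10 in 47.8% and 44.1%. In the unmatched groups the shares were 21.6% and 22.6%, and in the tRNA-like groups 21.8% and 11.5%. The median ratio over sequences was 0.409 for multi-gene, 0.439 for L1-matching and 0.652 for few-gene sequences. It was 0.574 for tRNA-like, 0.786 for unmatched and 1.01 for tailed miRNA sequences. The multi-gene and L1-matching sequences had the highest shares of U1 and A10 and the lowest median ratios of these classes, and 129 of these 193 were at or below 0.5, a share of 66.8% beside 26.6% of the rarer sequences. Of the 226 tailed miRNAs, 1 was at or below 0.5. It was assigned to miR-3470b and had 273 WT and 77 KO reads (0.278, 0.213 to 0.359), and the exact reads had a similar ratio of 0.311. The 918 sequences with U1 or A10 outside the miRNA, structural and tRNA-like classes had a ratio of 0.717 (0.712 to 0.722). Of these 918, 574 lay in ladders. The set had 208292 WT reads. It included both groups named above as rRNA ends, which have A10 and had 33874 and 14673 WT reads. Its ratio is therefore not that of piRNA-like sequences alone. With all reads as the normalizing total, the ratios of whole classes were 0.470 for multi-gene and L1-matching together, 0.583 for tRNA-like, 0.949 for unmatched and 1.18 for tailed miRNA sequences.

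Long interspersed element L1 is an autonomous retrotransposon that fetal piRNAs are known to target. Among the multi-gene and L1-matching sequences, 159 lay within 2 mismatches of L1, 113 in the sense and 46 in the antisense direction of the element. The sense sequences had 18014 WT and 8796 KO reads, a ratio of 0.481 (0.469 to 0.493). The antisense sequences had 12632 WT and 3570 KO reads, a ratio of 0.278 (0.268 to 0.289), and the intervals of the strands did not overlap. At or below 0.5 were 64 of the 113 sense and 45 of the 46 antisense sequences. These shares were 56.6% and 97.8%, beside 26.6% of the rarer sequences of 20 to 99 reads. U1 was present in 60 of 64 sense groups and A10 in 19, whereas 20 of 27 antisense groups had U1 and 20 had A10. The sense groups thus mostly began with U, and A10 was more frequent in the antisense groups.

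The lower ratio of the antisense sequences was seen at each base combination with reads on both strands. Sequences with U1 and without A10 had a ratio of 0.469 (0.455 to 0.484) in sense and 0.288 (0.266 to 0.312) in antisense, and those with both bases had 0.506 (0.481 to 0.532) and 0.279 (0.262 to 0.297). Antisense sequences with A10 and without U1 had 0.273 (0.257 to 0.289), and the 3 such sense sequences 0.604 (0.497 to 0.733). At 28 nt the ratio was 0.442 in sense and 0.261 in antisense, at 29 nt 0.451 and 0.272, and at 30 nt 0.484 and 0.282. The antisense ratio was the lower at each length from 26 to 31 nt. At 25 nt the only antisense sequence, with 85 WT and 50 KO reads, had 0.579 (0.400 to 0.831), beside 0.455 for the 5 sense sequences. With structural RNA reads as the normalizing total, the ratios were 0.583 in sense and 0.337 in antisense.

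Among named antisense sequences, multi-gene a was read 1425 times in WT and 339 times in KO, and multi-gene b 1425 and 361 times. Their ratios were 0.234 (0.208 to 0.264) and 0.2495 (0.222 to 0.280). The sense sequences L1-matching a, with 453 WT and 241 KO reads, and L1-matching b, with 533 and 267, had ratios of 0.524 (0.446 to 0.614) and 0.493 (0.424 to 0.573). Each antisense interval thus lay below each of the sense intervals. The lowest group with at least 500 reads was also antisense to L1: the sequence named lowest ratio a had 324 WT and 47 KO reads and a ratio of 0.143 (0.103 to 0.195), and its group of 2 sequences 0.183 (0.147 to 0.225). The 34 multi-gene sequences that were not L1 had a ratio of 0.453 (0.429 to 0.478), with U1 in 18 and A10 in 17 of their 29 groups. Among these were 4 sequences complementary over 26 bases to the probe that the study used against a piRNA of the retrotransposon IAP. The most frequent of them had 261 WT and 107 KO reads and a ratio of 0.404 (0.319 to 0.508), and the other 3 had ratios from 0.387 to 0.514.

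Few-gene sequences were of mixed kinds. Of the 178, 80 belonged to ladders, sets of overlapping sequences from 5 or more groups that are described below. These 80 had a median ratio of 0.759 and U1 in 22.7% of groups. The other 98 had a median ratio of 0.510 and U1 in 67.1% of groups. The limit of 5 groups was chosen after the values were seen. The multi-gene, L1-matching and these 98 sequences are called transcript-matched in the following, 291 sequences in 192 groups with 50657 WT and 22433 KO reads. Their ratio was 0.436 (0.429 to 0.443), U1 was present in 146 of the groups and A10 in 83. The 89 groups with U1 and without A10 had a median ratio of 0.437, the 57 with both 0.420, the 26 with A10 and without U1 0.465, and the 20 with neither 0.744. The groups with neither base thus had the highest median. They ranged from 0.153 to 1.15 and included sequences that matched Lars2, Ddx5, Rmrp and Rian in sense. Whether these are piRNAs was not tested.

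Several few-gene sequences could be placed in the genome because they matched the transcripts of 1 gene or a pair of genes. Of 44 such sequences outside ladders, matching 24 genes, 14 were at or below 0.5, a share close to the 26.6% of the rarer sequences. The examples below were chosen after their values were seen, to show places with different ratios, and capitals again mark positions 1 and 10. The coordinates are those of GRCm38, the build of the annotation, and were obtained from the exons of the matched transcripts.
Gm26809 antisense, chr6:18844882-18844910, minus strand: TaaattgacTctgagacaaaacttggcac
Gm47906 antisense, chr14:24834078-24834104, minus strand: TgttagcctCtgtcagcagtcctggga
Gm4316 sense, chr8:123170935-123170961, plus strand: TaagaacttGgaacctcgctgaaaagg
Gm7968 sense, chr15:35590187-35590216, plus strand: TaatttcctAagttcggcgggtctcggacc
Rian sense, chr12:109650708-109650735, plus strand: AatcatgacGacaaatttaattctgaga
The first 4 began with U and lay in exons without a coding part, of lincRNAs in the first 3 cases. The Gm26809 sequence had 244 WT and 60 KO reads (ratio 0.242, 0.180 to 0.322), and a second one at chr6:18845038-18845066 had 85 and 21 reads (0.243, 0.143 to 0.396). The Gm47906 sequence had 518 WT and 181 KO reads (0.344, 0.289 to 0.408). The Gm4316 sequence had 402 and 144 reads (0.353, 0.290 to 0.428) and shared its 5′ group with the sequence named few genes b, which had 753 and 226 reads (0.296, 0.254 to 0.344). The Gm7968 sequence had 337 and 106 reads (0.310, 0.247 to 0.387). These 4 were all below 0.5 with their whole intervals. Rian, a noncoding RNA that hosts small nucleolar RNAs, gave a sequence with A at the first position, with 192 WT and 150 KO reads and a ratio of 0.770 (0.617 to 0.958). The protein-coding genes Noct (antisense, untranslated part of exon 1) and D10Wsu102e (sense, untranslated part of exon 4) also had sequences of this kind. The ratios were 0.464 to 0.564 for the 3 at Noct, each of which also matched another gene, and 0.604 (0.423 to 0.858) for that at D10Wsu102e.

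The 5′ ends of the groups were compared with each other to find pairs that could be related by ping-pong. Groups whose first 10 bases were exactly complementary formed 15 pairs, and 14 of these were counted as pairs of transcript-matched groups. The remaining pair joined the group of the Gm7968 sequence, with a ratio of 0.324 (0.281 to 0.372), to that of few genes a, with 0.600 (0.562 to 0.641). Both had U1 and A10. Their most frequent sequences were few-gene sequences outside ladders, but each group also held a sequence of another class. At 8 complementary bases there were 13 pairs and at 9 bases 9 pairs, with 1 pair of transcript-matched groups in each case, and at 11 and 12 bases there were 2 pairs and 1 pair. In 13 of the 15 pairs a group with A10 and without U1 faced a group with U1. The following pairs, chosen after their values were seen, have different A10 groups and are shown with the 10 complementary bases in capitals.
pair 1, A10: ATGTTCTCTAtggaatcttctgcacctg
pair 1, U1: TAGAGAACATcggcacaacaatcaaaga
pair 2, A10: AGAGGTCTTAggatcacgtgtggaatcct
pair 2, U1: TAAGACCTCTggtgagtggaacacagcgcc
pair 3, A10: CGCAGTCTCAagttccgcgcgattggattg
pair 3, U1: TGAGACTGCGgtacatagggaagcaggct
pair 4, A10: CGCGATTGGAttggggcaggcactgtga
pair 4, U1: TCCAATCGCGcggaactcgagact
pair 5, A10: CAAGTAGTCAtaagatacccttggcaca
pair 5, U1: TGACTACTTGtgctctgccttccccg
The A10 group of pair 1 had 2481 WT and 646 KO reads and a ratio of 0.257 (0.235 to 0.280), and its U1 group had 661 and 280 reads and 0.417 (0.362 to 0.481). In pair 2 the A10 group had 582 and 108 reads (0.183, 0.147 to 0.225), and the U1 group 1272 and 722 reads (0.559, 0.510 to 0.613). In pairs 1 and 2 the A10 group was further below WT than the group it was complementary to. In pair 3 the ratios were 0.272 (0.204 to 0.359) for A10 and 0.438 (0.393 to 0.488) for U1, and in pair 4 they were 0.447 (0.347 to 0.574) and 0.535 (0.476 to 0.601). The intervals of pair 4 overlapped. In pair 5 the A10 group had 78 and 49 reads (0.619, 0.424 to 0.896) and the U1 group 408 and 235 (0.567, 0.481 to 0.668), also with overlapping intervals. The A10 group had the lower ratio in 12 of the 13 pairs, and its interval lay wholly below that of the U1 group in 6. In these 12 pairs the A10 sequences were antisense and the U1 sequences sense to L1, so that the base and the L1 strand cannot be told apart and the difference is that between the L1 strands given above. The remaining pair, pair 5, matched L1 on neither side. Over all transcript-matched groups the median of those with A10 and without U1 (0.465) was not below that of those with U1 and without A10 (0.437). By summed reads these sets had 0.347 (0.332 to 0.362) and 0.436 (0.426 to 0.446), so that the A10 set was the lower. L1 antisense sequences held 5343 of the 7680 WT reads of that A10 set. The 13 pairs were made from 7 A10 groups and 10 U1 groups, so they are not independent of each other. The median ratio was 0.272 over the A10 groups (range 0.183 to 0.619) and 0.491 over the U1 groups (0.361 to 0.603).

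The same 10-base overlap was seen when all reads of 24 to 33 nt were searched around the transcript-matched groups, of which 191 could be placed on transcripts. Opposite-strand reads overlapping the group's 5′ end by 1 to 30 bases were counted. Of these, 53.4% of the WT reads (23279) and 52.7% of the KO reads (9385) overlapped by exactly 10 bases. No other overlap held more than 6.08% in WT or 7.24% in KO, both at 5 bases, and the median over the other overlaps was 1.07% and 1.22%. An opposite-strand read at 10 bases existed for 142 of the 191 groups, and at any other overlap for at most 94. The share of partner reads at the 10-base position was thus similar in both libraries.

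Short RNAs that ended immediately before the 5′ end of a transcript-matched group were also counted. Such RNAs of 16 nt existed at 48 of the 191 groups and RNAs of 19 nt at 58, against 12 to 21 groups for the other lengths from 17 to 23 nt. The 16-nt RNAs had 467 WT and 291 KO reads (ratio 0.614), and the 19-nt RNAs 286 and 267 (0.920).

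The 3′ ends were described from all sequences of 24 to 33 nt that shared the first 20 bases of a group, whatever their read count. In the median group, 48.6% of the reads had the most frequent length (quartiles 35.5% and 69.9%), and reads were found at 10 of the 10 possible lengths. The median share at the most frequent length was 94.8% in the 11 structural variant groups, 74.5% in tailed miRNAs, 69.7% in tRNA-like, 61.7% in transcript-matched and 45.1% in unmatched groups. The most frequent length of the transcript-matched groups was 29 nt in 49 groups, 28 nt in 48, 27 nt in 31, 30 nt in 24 and 26 nt in 20. In the tRNA-like groups 33 nt was the most frequent choice, in 13 of 69 groups, which is also the upper length limit. The most frequent length was the same in WT and KO in 1066 of the 1175 groups, shorter in KO in 81 and longer in KO in 28. Among the transcript-matched groups it was the same in 181 of 191, shorter in KO in 3 and longer in 7.

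Of the groups shown above, few genes a differed in its 3′ end between the libraries, with 26 nt as the most frequent length in WT (38.0%) and 28 nt in KO (36.3%). The 26-nt form had 938 WT and 418 KO reads, a ratio of 0.439 (0.390 to 0.493). The 27-nt form had 383 and 233 reads (0.599, 0.507 to 0.707), and the 28-nt form 598 and 546 (0.899, 0.799 to 1.01). The ratio was thus higher at each length up to 28 nt, and it was 0.718 at 29 nt and 0.594 at 30 nt. The group named lowest ratio a had 29 nt as the most frequent length in WT (47.0%) and 28 nt in KO (41.9%), with ratios of 0.143 and 0.233 for the sequences of these lengths. In multi-gene a, the ratios of the forms of 26, 27, 28 and 29 nt were 0.261, 0.272, 0.234 and 0.348, so that its forms of different length were all below 0.5.

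The ratio was lower for longer sequences in the unmatched and tRNA-like classes. Over the unmatched sequences the median ratio was 0.889 at 24 nt, 0.798 at 28 nt, 0.678 at 30 nt and 0.519 at 33 nt. Over the tRNA-like sequences it was 0.974 at 24 nt (5 sequences) and 0.451 at 33 nt (33 sequences). This class joined unlike sequences. The median ratio was 0.508 over the 128 with an A box. It was 0.832 over the 40 called by a CCA end alone, of which 26 lay in ladders. The tRNA-like medians at different lengths can therefore come from different kinds of sequence. The multi-gene and L1-matching sequences had medians of 0.469 at 26 nt, 0.409 at 28 nt and 0.348 at 30 nt, below the unmatched sequences at each of these lengths. At 31 nt their median was 0.636 (10 sequences), beside 0.652 for unmatched sequences. The tailed miRNAs had medians of 1.01 at 24 nt, 1.02 at 25 nt and 1.05 at 26 nt. Within single groups, the longest sequence was compared with the shortest where they differed by at least 3 nt. The longest had the lower ratio in 168 of 205 unmatched groups and in 15 of 15 tRNA-like groups, and its median ratio relative to the shortest was 0.758 and 0.630. In the transcript-matched groups the longest was lower in 7 of 17, with a median relative ratio of 1.05. The longest sequence was therefore mostly the lower in tRNA-like and unmatched groups, and in a minority of the transcript-matched groups. What moves with length between the libraries was not tested.

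The group at the 5′ end of 28S rRNA had a lower ratio at each step from 27 nt to 33 nt. Its 29-nt sequence had 8894 WT and 7669 KO reads, a ratio of 0.849 (0.824 to 0.876). The ratio was 0.996 at 24 nt (0.935 to 1.06), 0.853 at 25 nt (0.589 to 1.23) and 0.880 at 26 nt (0.779 to 0.994). It was 0.923 at 27 nt, 0.856 at 28 nt, 0.794 at 30 nt, 0.725 at 31 nt, 0.667 at 32 nt and 0.656 at 33 nt (0.632 to 0.680). The fall was thus not steady below 27 nt. The interval thus included 1 at 24 nt and lay below it at 33 nt. The 5.8S rRNA 3′ end, by contrast, had 14327 WT and 18702 KO reads and a ratio of 1.29 (1.26 to 1.31), with 97.7% of WT reads at 29 nt.

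Unmatched sequences were mainly laid out as ladders. Sequences with 18 bases in a row in common were joined, which gave 384 sets. Of these, 178 held a single sequence and 58 had at least 5 different 5′ ends. These 58 ladders held 1743 of the 2570 sequences and 66.2% of the reads. The ladders with the most reads of all were those of the tRNA-Val and tRNA-Gly fragments. Their 11 and 16 groups included forms with 1 changed base at or near the 5′ end. Of the 1552 unmatched sequences, 1331 lay in ladders, and these held 30.1% of the WT reads and 34.7% of the KO reads. The ladders with the most reads that were mainly of unmatched sequences held 98, 134 and 137 sequences in 19, 39 and 46 groups. Their ratios were 0.741, 0.789 and 0.727. U1 was present in 19.1% of the groups of unmatched ladder sequences. Outside ladders, 61 unmatched sequences had U1, with a ratio of 0.564 (0.544 to 0.586), and 23 of them were at or below 0.5. The 160 without U1 had 0.840 (0.829 to 0.851), and 6 were at or below 0.5. The shares at or below 0.5 were thus 37.7% with U1 and 3.75% without, beside 26.6% of the rarer sequences of 20 to 99 reads.

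The tRNA-like sequences were led by 5′ fragments of tRNA-Val and tRNA-Gly, which end in or near the anticodon loop and that cells release from mature tRNAs. The tRNA-Val fragment of 33 nt, the most frequent of all 2570 sequences, had 124016 WT and 59158 KO reads and a ratio of 0.470 (0.465 to 0.475). Its group of 15 sequences had 0.477, and without that group the ratio of all sequences was 0.763 in place of 0.710. The tRNA-Gly fragment had 36346 and 19115 reads at 30 nt (0.518, 0.509 to 0.527), 21411 and 10861 at 31 nt (0.4997, 0.488 to 0.511) and 17690 and 7395 at 32 nt (0.412, 0.401 to 0.423). These fragments were therefore near the low limit, and the ratio was lowest in the longest of the 3 forms. The sequence of 28 nt ending in CCA had 11254 and 3864 reads, a ratio of 0.338 (0.326 to 0.351). It was called tRNA-like by its CCA end alone, and 99.7% of the reads of its group had that length in each library. Fragments with a B box, from the 3′ side of tRNAs, had a ratio of 0.807 (0.777 to 0.838), so that these sequences differed less from WT than the sequences with an A box (0.492, 0.489 to 0.495).

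A 29-nt 3′ fragment of tRNA-Gly, chosen after its values were seen, occurred in forms that differ at the eleventh base, counted from 1 at the 5′ end and shown in capitals. The genomic base there, from general knowledge, is the T-loop adenine that is methylated in many tRNAs.
main form: cccgggttcgTttcccggccaacgcacca
T11A: cccgggttcgAttcccggccaacgcacca
T11G: cccgggttcgGttcccggccaacgcacca
The form with T had 1480 WT and 1408 KO reads (ratio 0.937), and that with A had 326 and 281 (0.849). The A form made up 18.1% of the sum of the A and T forms in WT and 16.6% in KO. The form with G had 70 and 65 reads. The proportions of the forms were thus similar in the 2 libraries.

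The 3 tailed miRNA groups with the most reads had ratios close to those of the miRNAs they came from. The miR-92a-3p group had 37206 WT and 36732 KO reads (0.973, 0.959 to 0.987), the miR-127-3p group 33127 and 32954 (0.980, 0.965 to 0.995) and the miR-10b-5p group 27024 and 28112 (1.03, 1.01 to 1.04). The reads that matched the hairpins exactly over the same first 20 bases had ratios of 0.998, 1.04 and 0.983. Tailed reads of 24 nt or more made up similar shares of these 3 in both libraries: 67.4% and 66.8% for miR-92a-3p, 23.2% and 22.1% for miR-127-3p and 2.25% and 2.34% for miR-10b-5p. The group of miR-199a-5p was higher in KO, with 7689 and 10056 reads (1.29, 1.25 to 1.33), as were its exact reads (1.47). Some smaller groups departed from their miRNA: the miR-423-3p group had 153 and 116 reads and a ratio of 0.747 (0.582 to 0.957) where its exact reads had 1.09, and its tailed share was 21.2% in WT and 15.6% in KO. The miR-214-3p sequence, with 70 and 48 reads, had 0.675 (0.458 to 0.989) where the exact reads had 0.9296. Of the 226 tails, 64 were 1 base long and 77 were 2 bases long, 60 were made of T only, 55 of A only and 79 of both.

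The 7 sequences at or above a ratio of 2 were of 2 kinds. Of these, 5 were a tRNA-Val or tRNA-Gly 5′ fragment with the first base changed from G to T (G1T), as shown for the most frequent pair, with the first base in capitals.
tRNA-Val fragment: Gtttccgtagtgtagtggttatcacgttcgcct
G1T: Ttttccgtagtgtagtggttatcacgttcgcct
The G1T form had 92 WT and 1212 KO reads, a ratio of 13.0 (10.5 to 16.2), and that of the 30-nt tRNA-Gly fragment had 20 and 390 reads and 19.2 (12.3 to 31.8). Relative to the unchanged sequence, the tRNA-Val G1T form was 0.0742% in WT and 2.05% in KO. The other 2 sequences belonged to a GC-rich unmatched group and had 24 and 25 nt. The higher one had 87 WT and 332 KO reads (3.76, 2.96 to 4.82), and the group of 6 had 1.67 (1.53 to 1.82).

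The change of G to T at the first base was also seen outside tRNA fragments. It was counted for all sequences of at least 16 nt and 1000 reads that began with G, leaving out those with fewer than 5 times the reads of their changed form. Over 67 such sequences the changed form amounted to 0.0859% of the unchanged reads in WT and 2.11% in KO, and it was higher in KO for 67 of 67. The KO share was 2.11% for the 27 tRNA-like sequences, 1.80% for the 4 miRNA sequences (0.0% in WT) and 2.16% for the other 36. The other 2 changes of a first G were also more frequent in KO, with 0.0582% in WT and 0.150% in KO for G1A and 0.0387% and 0.109% for G1C. All 11 other first-base changes lay between 0.016% and 0.0582% in WT and between 0.0156% and 0.150% in KO. The KO library thus held more G1T forms in each of the 3 kinds of RNA examined, and their source was not tested. Among the 2570 sequences, 73 differed by 1 base from a sequence with at least 20 times their reads, 38 of them tRNA-like and 27 tailed miRNAs, and 5 of these 73 were the G1T forms.

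At the lower end of the range, the 3 sequences with the lowest ratios all had U1 and A10. By general knowledge, 2 of them are antisense to B1, a short interspersed element. No repeat annotation was used here. They were chosen after their values were seen.
B1 antisense a: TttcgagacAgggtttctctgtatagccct
B1 antisense b: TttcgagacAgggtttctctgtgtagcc
unmatched: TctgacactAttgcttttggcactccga
B1 antisense a had 122 WT and 5 KO reads, a ratio of 0.0404 (0.0129 to 0.0968). B1 antisense b had 102 and 9 reads (0.0869, 0.0386 to 0.172), and the unmatched sequence 99 and 6 (0.0597, 0.0214 to 0.135). The B1 sequences matched transcripts of 92 and 158 genes in sense and of 99 and 169 in antisense, and had been put with the miRNA variants because an annotated hairpin lies within 2 mismatches of them. All 3 intervals lay far below 0.5, at KO counts of at most 9 reads.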

How the data were processed

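The authors clipped the adaptor from single-end reads and deposited, for each library, the distinct sequences with their raw read counts, not mapped and not normalized. The clipping tool is not given in the sources used here. The submitters' notes name mm9, which was not needed, since the deposited values hold no coordinates. GENCODE M21 transcripts (GRCm38) were used for all matches, and RefSeq for mature miRNAs. The members and lists were chosen with earlier results of these data known. Groups come from the labels, with 1 library per genotype (6409305 and 5589326 reads, so that 3 reads are 4.68e-05% and 5.37e-05%). No test across sequences was made, and ratios carry 95% Clopper-Pearson intervals. L1 copies in the transcripts were found by at least 3 primer sites of the study and aligned with BLAST+ 2.17.0 (aligned parts of at least 200 nt). Named sequences were the 10 groups with most reads, the 2 with most reads in each class, and the 3 lowest and 3 highest ratios among groups of at least 500 reads. All other named sequences were chosen after their values were seen. Alternatives covered the normalizing total, the read limit, the match filters and the bases shared by a group. The matching and the intervals were tested on simulated data. Scripts ran under numba 0.67.0, scipy 1.17.1, pandas 2.3.3, numpy 2.4.6 and Python 3.11.15. No genome, nuclear tRNA or rRNA precursor sequence was used here.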

Additional observations from a re-analysis of the deposited data

How the results depend on the processing

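No paired analysis was possible because each genotype had 1 library, and for the same reason no replicate could be left out. Of 54 alternative values, 31 stayed within the interval of the reported value or, for counts, within 1.5 times of it, and 23 did not. Of the ratios and median ratios, 0 moved to the other side of 1. Counts and shares, which are part of the 54, could not change direction in this sense. With all reads as the normalizing total, the ratio of all sequences was 0.827, the median over groups 0.900, the U1 or A10 set 0.835, and 236 sequences were at or below 0.5 and 11 at or above 2. With structural RNA reads these values were 0.861, 0.937, 0.869, 207 and 11. With reads of 20 to 23 nt the ratio of all sequences was 0.717 and that of the U1 or A10 set 0.7235. The U1 or A10 set lay mostly in ladders and included the rRNA end groups, so its ratio is not that of piRNA-like sequences alone. A limit of 50 reads gave 5140 sequences, 932 at or below 0.5, 19 at or above 2, a median of 0.752 and U1 in 35.9% of groups. A limit of 200 reads gave 1187 sequences, 172 at or below 0.5 and a median of 0.798. The ratio of all sequences was 0.650 without near matches to hairpins and structural RNA, 0.7055 without exact antisense matches and 0.763 without the tRNA-Val group. These shifts follow from the divisor or from which sequences were kept. Ratios at KO counts of few reads are limited by depth, and the spread between animals or libraries was not measured.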
